A study of Arabidopsis thaliana with 8 samples.

Results

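Downstream windows silent in wild type are stretches of 500 bases that start right after the annotated 3′ end of a transcript, hold at most 2 reads in the wild-type libraries together, and hold at least 30 reads in the mutant libraries together. The rule kept 1 window per locus, that of the lowest-numbered transcript model, and was applied to raw counts. It selected 243 of 31109 windows, each of which is called a member here and is named after the gene that lies upstream of it. The values that chose the members are the wild-type and mutant counts themselves, so every contrast with wild type is given as a description and only the differences between mutants were tested.

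The windows come from RNA sequencing of poly(A) RNA of Arabidopsis thaliana seedlings, a series made to ask whether the m6A mark helps messenger RNAs to be cut and polyadenylated at their proper end. There were 4 lines with 2 libraries each, all in the Col-0 ecotype and all from whole seedlings 9 days old. WT is the unmutated line. The line fip37L carries the insertion fip37-4 in FIP37, a subunit of the complex that writes m6A, together with a copy of FIP37 under the LEC1 promoter. That promoter is active in the embryo, so the writer is present while the seed forms and is lost afterwards, and the seedlings are not ones that lacked FIP37 throughout. The methods place fip37-4 seedlings on a medium with sucrose and have them collected under a microscope, and whether the other lines were handled in the same way is not stated. The insertion lines cpsf30-3 and cpsf30-1 affect CPSF30, a subunit of the cleavage and polyadenylation machinery. In cpsf30-3 the long isoform CPSF30L, which carries the YTH domain that binds m6A, is missing, whereas cpsf30-1 lacks both the long and the short isoform. Each genotype is represented by 1 line, and the sources do not state whether the replicates were grown separately, so all p-values measure the spread between these libraries only.

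An RNA polymerase II transcript is normally cut a short distance after a polyadenylation signal, often AATAAA or a variant of it, and a poly(A) tail is added at the cut. When cutting fails or moves downstream, the RNA runs on into the flanking DNA, which is called readthrough, and can reach the next gene. Reads in a window just past an annotated end are therefore used as a sign of readthrough, although the same reads can come from a gene that lies in the window itself or from an alternative end of the upstream gene. In a bulk sample of whole seedlings, more cells of a type and more RNA per cell cannot be told apart, and a window that fills because its upstream gene is more active cannot be told apart here from one that fills because cutting shifted, since the counts of the upstream transcripts were not analysed here.

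The sequences at which the member windows begin are shown for 8 members that carry the results below. Each is a stretch of 30 bases from the TAIR10.1 reference genome, read along the transcribed strand, that ends at the last annotated base of the transcript, so that the window starts at the next base. Capitals mark AATAAA where it is present.
TGG1 (chr5:9079452-9079481, minus strand): aatatccaaactcggatctcacatccatag
XBCP3 (chr1:3204121-3204150, plus strand): tatattatagagagactaagcttcactgtt
DI19 (chr1:21072855-21072884, minus strand): gttacttttggtgtgtgtgtgtttttctct
NF-YA10 (chr5:1987035-1987064, plus strand): tgtggtttatgtaacaaagtaaaagccaaa
ABCG22 (chr5:1989650-1989679, minus strand): ttatAATAAAattatttattatgaaccgca
ZAT (chr2:19239380-19239409, plus strand): aatcAATAAAgtttctacatttttcacttt
AT5G45630 (chr5:18505536-18505565, minus strand): gaatatacaaaattataatctgtgtttgtt
AT5G44390 (chr5:17882079-17882108, minus strand): gcctaactgtcattatccgccgattcgttt
Of these 8 ends, those of ABCG22 and ZAT hold the AATAAA hexamer. Over the 241 members that could be placed on the genome, 22 (9.13%) had AATAAA in the last 50 bases of the transcript, against 8.67% of all 30616 placed windows. The motif TGTA, read on the transcribed strand as AATAAA was, stood in the last 50 bases of 66 members (27.4%) and of 25.0% of all placed windows. By these letters, the ends in front of the members were close to those of the genome as a whole.

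Library totals over the 31109 windows ranged from 4138533 to 6039296 counts, and WT, with 5173604 and 4777989, lay inside that range. A count of 3, taken as the floor of detection, corresponded to 0.530 to 0.722 CPM, the count scaled to library size with TMM factors. The library kit keeps the strand of a read, but whether the deposited counts used it is not given for these files. Of 20 pairs of windows on opposite strands that overlapped by at least 490 bases, 7 had counts within 10% of each other over all 8 libraries and 2 of these were identical, so a count in a member window is not assigned to a strand here.

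Most members were highest in cpsf30-1. By mean CPM, 159 of the 243 members (65.4%) were highest in cpsf30-1, 69 (28.4%) in fip37L and 15 (6.17%) in cpsf30-3. Among the 13475 other windows with at least 30 mutant counts, 35.2% were highest in cpsf30-1, 38.9% in fip37L and 25.9% in cpsf30-3. The median member drew 53.7% of its summed mutant CPM from cpsf30-1, 23.6% from fip37L and 18.0% from cpsf30-3. Per library, the members held 3331 and 4314 counts for cpsf30-1, 3559 and 1319 for fip37L, 1766 and 1262 for cpsf30-3, and 155 and 140 for WT. The library totals differed too, and after scaling to CPM replicate 1 held 66.5% of the members' reads in fip37L, 53.9% in cpsf30-3 and 47.7% in cpsf30-1.

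The supply was lopsided. In 69 members (28.4%) at least 80% of the mutant CPM came from a single mutant, compared with 0.905% of the other windows with at least 30 mutant counts, and in 16 members at least 80% came from a single library. The limit of 30 counts over 6 libraries leaves most members with few reads: the median mutant sum was 47, the highest was 490, 74 members had at least 60 and 7 had at least 200. The part of low counts in the uneven supply was not tested. A reading of at least 10 counts in both libraries of a mutant was met by 87 members in cpsf30-1 alone, by 23 in fip37L alone and by 5 in cpsf30-3 alone. It was met in fip37L and cpsf30-1 together by 10 members, in all mutants by 8, of which 6 are a single group of neighbouring loci described below, and in no mutant by 105.

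**Figure D1:**
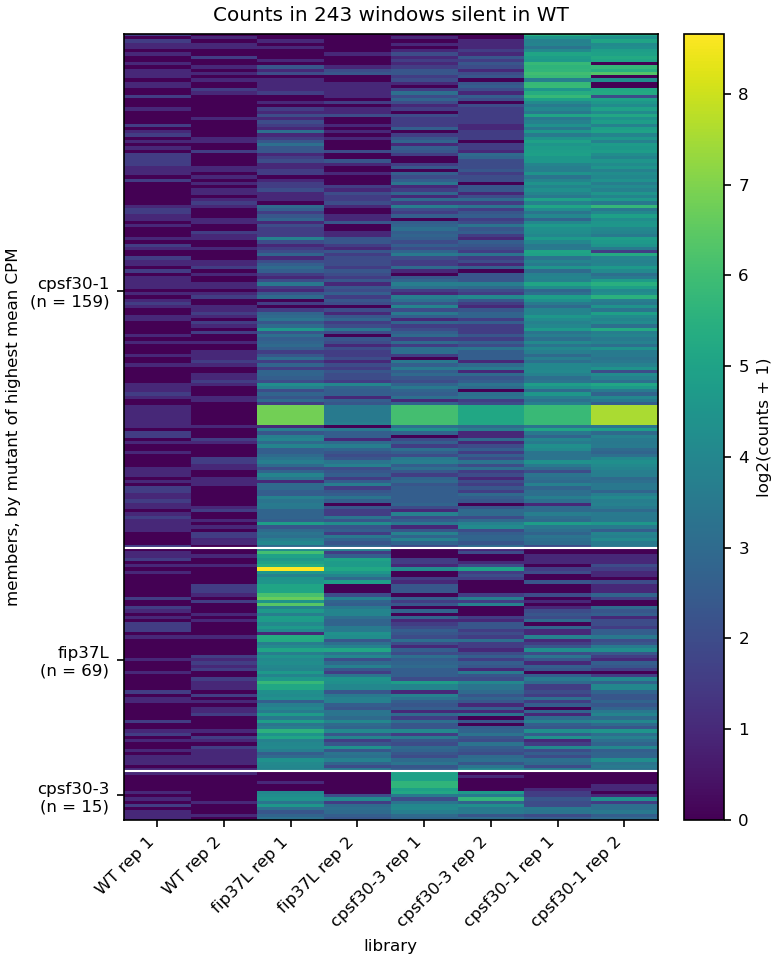
Each row is 1 of the 243 members and each column 1 of the 8 libraries, coloured by log2(counts + 1), with rows grouped by the mutant of highest mean CPM and ordered by the share of that mutant. The WT columns are dark because the rule made them so, and the largest block, 159 rows, is bright in both cpsf30-1 libraries.

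In WT, 55 members had no read, 81 had 1 and 107 had 2, so a reading of 2 was the most frequent. Just inside the limit for WT, the window of TGG1 held 1 and 1 reads in WT. Just outside it, the window of FAD5 held 2 and 1 reads in WT beside 143 and 210 for cpsf30-1 and at most 2 in any library of the other mutants. Just inside the limit for the mutants lay 14 members with 30 counts, for example AXR3 with 13 and 8 counts for cpsf30-1 and KCS3 with 9 and 15. Just outside it lay 19 windows with 29 counts, for example AT1G21528 with 18 and 10 for fip37L. With each other line put in the place of WT under the same limits, 142 windows were silent in fip37L, 88 were silent in cpsf30-1 and 86 were silent in cpsf30-3, compared with 243 in WT.

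A set of 20 members stood apart and has to be read first. They form 5 groups of neighbouring loci whose windows do not overlap, yet hold the same or nearly the same counts in every library (a summed difference of at most 15% of the mean total, a tolerance chosen after the values were seen). Of these, 6 members from AT2G05390 to AT2G05435 on chromosome 2 span 15.6 kb, and 5 of these windows held exactly 1 and 0 counts for WT, 113 and 11 for fip37L, 66 and 35 for cpsf30-3, and 58 and 190 for cpsf30-1. The sixth, AT2G05420, differed by 1 count in 2 libraries. These upstream loci encode TRAF-like, MATH-domain and ubiquitin-protease-related proteins or are pseudogenes, and the stretch lies between the genes of the glycine-rich proteins GRP3S and GRP9. The GRP3S window held 22 and 30 counts for WT and 381 and 746 for cpsf30-1. On the far side of GRP9, the windows of AT2G05450, AT2G05460, AT2G05470 and AT2G05480 were not members but were again identical to each other, with 1105 and 553 counts for WT.

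A second group holds ABCG39, AT1G67000, ZFP6, AT1G67060 and DIN9 on chromosome 1, whose windows held 55 to 56 counts in replicate 1 of cpsf30-1 and 0 to 3 in replicate 2. All 14 windows across these 60.5 kb, members or not, held 50 to 67 counts more in replicate 1 than in replicate 2. The stretch ends next to RBCS1A, which encodes a small subunit of Rubisco and whose window held 71 and 14 counts for cpsf30-1. The remaining groups came from other single libraries. AT2G22941, AT2G22942 and the calcium pump gene ACA7 held 33 counts each in replicate 1 of fip37L and 0 in replicate 2, beside serine carboxypeptidase-like genes. CYP81F3, a cytochrome P450 gene, and AT4G37409 held 50 counts each in replicate 1 of cpsf30-3 and 0 in replicate 2. The 4 loci AT5G37950, AT5G37960, AT5G37970 and AT5G37980 held 29 to 30 in that same library and at most 1 in its sister.

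No pair of member windows within a group shared a stretch of 75 bases, the read length in the labels, on either strand. How reads that align across a gap were counted is not given in the sources used here, and its part in these groups was not tested. The groups were found by counts repeated between neighbouring members. A lone member filled in the same way would therefore not be found. The 20 members carried 22.5% of all mutant counts in the 243 members, and 14 of the 16 members with at least 80% of their CPM from a single library are among them. Without them 223 members remained, of which 148 were highest in cpsf30-1, 66 in fip37L and 9 in cpsf30-3. A further 7 pairs of members overlap each other by 67 to 489 bases. With each of these pairs and each of the 5 groups counted once, the 243 members make 221 sets. Whether the windows within a set hold the same reads was not tested.

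**Figure D2:**
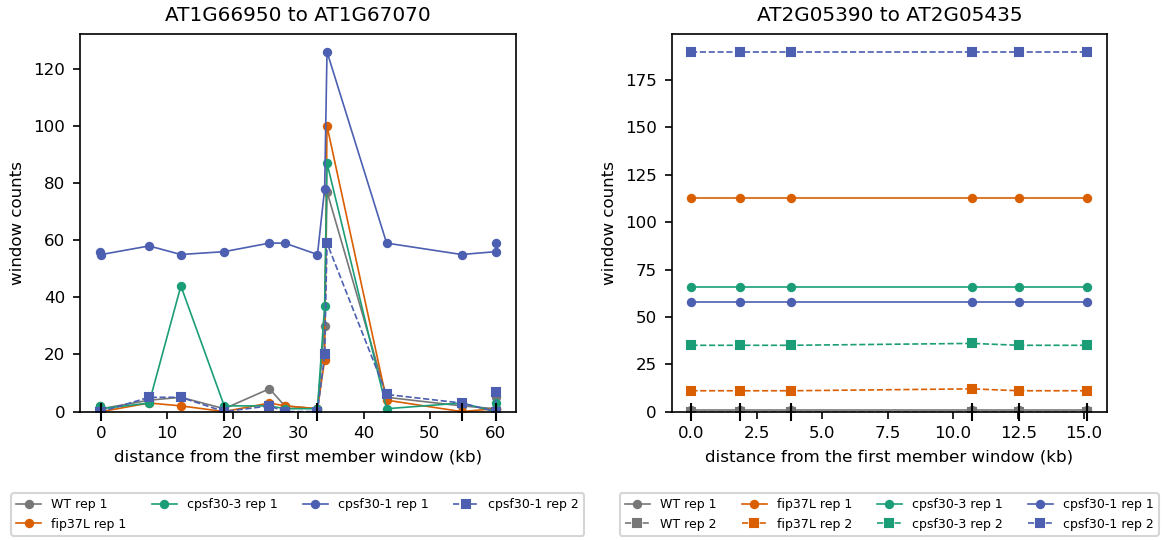
Window counts (vertical axis, from 0) against distance in kb from the first member window, on the left for all 14 windows from AT1G66950 to AT1G67070 in replicate 1 of each line and both cpsf30-1 libraries, on the right for the 6 windows from AT2G05390 to AT2G05435 in all libraries. Black ticks mark members, and the level lines show the repeated counts, 55 to 56 for the members in replicate 1 of cpsf30-1 on the left and 190 in replicate 2 of cpsf30-1 on the right.

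The mutants were compared with edgeR's quasi-likelihood test over all 12583 windows that passed its filter on low counts, with p-values adjusted by Benjamini-Hochberg over all of them, and a window was called when its adjusted p was under 0.05 and its difference at least 2-fold. Of the 243 members, 149 passed that filter. In the fits with a library left out, 196 to 228 members passed it, so calls in those fits can be of other members. A member often passed through the reads of the mutant in which it was high, so the counts below describe the tested members and are no measure for all of them.

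Against fip37L, cpsf30-1 was called higher at 83 of the 149 tested members (55.7%), where 10.2% of all tested windows were called that way. The reverse call, higher in fip37L, was made at 18 members (12.1%), against a background of 7.70%. The median log2 difference of fip37L against cpsf30-1 was -2.17 over the tested members and 0.01 over all tested windows. Both counts moved when a library was left out. Calls for cpsf30-1 dropped to 49 without replicate 1 of cpsf30-1 and to 49 without replicate 2, and calls for fip37L to 10, 9 and 10 without replicate 1 of cpsf30-1, replicate 2 of cpsf30-1 and replicate 1 of fip37L. DESeq2 made 51 and 10 calls.

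Against cpsf30-3, cpsf30-1 was called higher at 64 tested members (43.0%), with a background of 6.19%, and lower at 1 (0.671%), with a background of 1.45%. The median log2 difference of cpsf30-1 against cpsf30-3 was 1.75 over the tested members and -0.01 over all tested windows. This count of 64 was fragile. It was 10 and 14 without replicate 1 and replicate 2 of cpsf30-3, 10 and 13 without those of cpsf30-1, 41 without either WT library, and 16 with DESeq2, which gave an adjusted p to 89 of the members. The single reverse call, AT5G44390, was kept without replicate 1 or replicate 2 of fip37L. Without replicate 2 of cpsf30-3 it was lost, while other members were called. By edgeR it was also lost without replicate 1 of WT, replicate 1 of cpsf30-3, or replicate 1 or replicate 2 of cpsf30-1.

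Between fip37L and cpsf30-3, 18 tested members (12.1%) were called higher in fip37L, with a background of 4.14%, and 2 (1.34%) higher in cpsf30-3, with a background of 2.59%. The median log2 difference of fip37L against cpsf30-3 was -0.16 over the tested members and 0.01 over all tested windows. The 18 calls became 7 and 8 without replicate 1 and replicate 2 of cpsf30-3, and 1 with DESeq2, which gave an adjusted p to 26 of the members. Neither of the 2 calls for cpsf30-3 was kept without replicate 1 of fip37L or replicate 2 of cpsf30-3, where other members were called instead. By edgeR both were also lost without replicate 2 of fip37L, replicate 1 of cpsf30-3, or replicate 1 or replicate 2 of cpsf30-1. No member in the 5 groups of repeated counts was called in any comparison between mutants, and 6 of the 20 had been tested. Of the 109 tested members highest in cpsf30-1, 57 were called higher there than in both other mutants, as were 11 of the 34 tested members highest in fip37L and 0 of the 6 tested members highest in cpsf30-3, of which 1 was called over a single other mutant. Grouping members by the mutant in which they were highest favours calls for that mutant. The same share over all tested windows is not given here, so these counts are a description and do not compare the lines.

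The window of TGG1 on chromosome 5 is a clear case of the cpsf30-1 pattern. TGG1 encodes a myrosinase, the enzyme that breaks down glucosinolates when tissue is damaged. Its window (chr5:9078952-9079451) held 1 and 1 counts for WT, 3 and 4 for fip37L, 4 and 3 for cpsf30-3, and 64 and 78 for cpsf30-1. The cpsf30-1 libraries lay far above all others and no other group overlapped them. The log2 difference was 4.37 ± 0.33 (SE, n = 2 libraries per line) over fip37L (edgeR adjusted p = 4.4e-05) and 4.32 ± 0.33 over cpsf30-3 (edgeR adjusted p = 0.00015). No other annotated gene lies in that window.

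DI19, which encodes a drought-induced zinc finger protein, had 43 and 33 counts for cpsf30-1, 2 and 0 for WT, and none in any of the 4 libraries of fip37L and cpsf30-3. With those libraries set at the floor of 3 counts each, cpsf30-1 was at least 13.3-fold higher than fip37L and at least 13.0-fold higher than cpsf30-3. XBCP3, a papain-like cysteine protease gene, had 0 and 1 counts for WT, 4 and 1 for fip37L, 2 and 3 for cpsf30-3, and 49 and 54 for cpsf30-1. In both windows the cpsf30-1 libraries stood clear of the rest. The XBCP3 window is covered whole by PUP16, a purine permease gene on the opposite strand, and AT1G04743, annotated on the same strand, begins 159 bases after the end of XBCP3. The XBCP3 difference was 4.39 ± 0.46 on the log2 scale over fip37L and 4.32 ± 0.46 over cpsf30-3.

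NF-YA10 and ABCG22 lie on either side of AT5G06520 on chromosome 5, and the windows of both were members. NF-YA10, a subunit of a CCAAT-binding transcription factor, had 51 and 42 counts for cpsf30-1 and at most 4 in any other library. ABCG22, an ABC transporter gene with a role in stomata, had 33 and 30 for cpsf30-1 and at most 3 elsewhere. Both were called higher in cpsf30-1 than in either other mutant, with log2 differences over cpsf30-3 of 4.19 ± 0.54 and 3.93 ± 0.58. The latter call was lost without replicate 1 of cpsf30-1. The window of ABCG22 runs into AT5G06520 on the same strand, and that of NF-YA10 faces it on the opposite strand. AT5G06520's own window was no member, with 9 and 4 counts for WT, 20 and 25 for fip37L, 8 and 4 for cpsf30-3, and 30 and 22 for cpsf30-1.

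FUM1 and ERF71 on chromosome 2 are a facing pair whose windows share 287 bases. Unless the counts were made by strand, their reads may be in part the same. FUM1 encodes mitochondrial fumarase, an enzyme of the citric acid cycle, and ERF71 an ethylene-response-factor protein induced by low oxygen. The FUM1 window held 40 and 37 counts for cpsf30-1, 8 and 1 for cpsf30-3, 2 and 1 for fip37L, and 0 and 1 for WT. The ERF71 window held 28 and 27 for cpsf30-1 and at most 4 in any other library. Both were called over both other mutants. Over cpsf30-3, FUM1 lost its call without replicate 1 of cpsf30-1, and ERF71 without replicate 2 of cpsf30-3 or either cpsf30-1 library.

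ZAT, which encodes a zinc transporter, showed a lower contrast with cpsf30-3, with 33 and 53 counts for cpsf30-1, 12 and 9 for cpsf30-3, 7 and 1 for fip37L, and 1 and 1 for WT. Its log2 difference was 3.47 ± 0.46 over fip37L and 2.04 ± 0.38 over cpsf30-3 (edgeR adjusted p = 0.011). The latter was not called by DESeq2, nor with any library of cpsf30-3 or cpsf30-1 left out. AT2G46810 on the same strand covers 216 bases of the ZAT window. MPK3, a mitogen-activated protein kinase of stress signalling, had 28 and 45 counts for cpsf30-1, 12 and 16 for cpsf30-3, 7 and 2 for fip37L, and 0 and 2 for WT, and was called over fip37L but not over cpsf30-3 (log2 difference 1.38 ± 0.42, edgeR adjusted p = 0.062). The MPK3 window lies almost wholly, for 498 bases, in NAXT1, a nitrate excretion transporter gene on the same strand. NAXT1's own window held 33 and 27 counts for WT and 94 and 108 for cpsf30-1. In ZAT and MPK3, the cpsf30-3 counts lay between those of WT and cpsf30-1 without overlapping either.

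Other members called over both mutants were AT1G01670, a RING/U-box gene with 33 and 36 counts for cpsf30-1, GLX1, a glyoxalase gene with 22 and 35, AT5G14920, a gibberellin-regulated gene with 27 and 37, and AT1G51980, of the insulinase family, with 29 and 29. In fip37L, AT5G14920 and AT1G51980 had no read. In these 4 members every cpsf30-1 library lay above every library of the other lines. Genes on the same strand cover 491 bases of the AT1G01670 window (AT1G01660) and 386 of that of AT5G14920 (SAG101).

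Many calls over cpsf30-3 were lost under alternatives. Of the 16 members of highest mean CPM called higher in cpsf30-1 than in both other mutants, 16 kept the call over fip37L under every alternative that could test it, and 5, namely TGG1, XBCP3, NF-YA10, DI19 and AT1G01670, kept the call over cpsf30-3. AT1G51980 lost the latter with any library of cpsf30-3 or cpsf30-1 left out and with DESeq2. AT5G14920 lost it without replicate 1 of cpsf30-3 or either cpsf30-1 library, and GLX1 without replicate 1 of cpsf30-3 or replicate 2 of cpsf30-1. None of these differences changed direction.

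**Figure D3:**
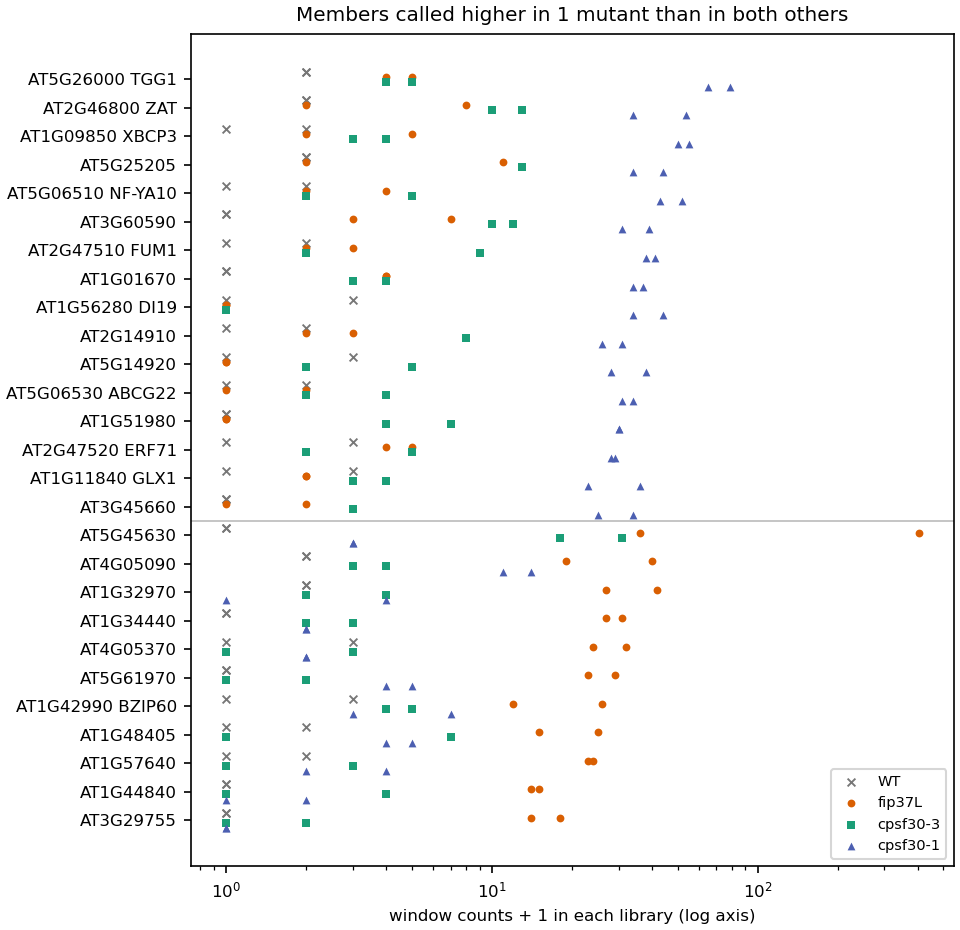
Counts + 1 on a log axis in each of the 8 libraries for 27 members called higher in 1 mutant than in both others, the 16 of highest mean CPM that are highest in cpsf30-1 (above the line) and the 11 highest in fip37L (below it), with 2 marks per line. In the upper part the cpsf30-1 marks stand to the right of all others, for example at counts of 64 and 78 for TGG1, and in the lower part the fip37L marks do.

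Among members highest in fip37L, AT5G45630 had the most mutant reads of any member and uneven replicates. This gene of the senescence regulator family had 404 and 35 counts for fip37L, 17 and 30 for cpsf30-3, 2 and 2 for cpsf30-1, and 0 and 0 for WT. Replicate 1 stood far above every other library, while replicate 2 lay close to the higher cpsf30-3 library. The log2 difference was 6.48 ± 1.24 over cpsf30-1 and 3.00 ± 0.84 over cpsf30-3 (edgeR adjusted p = 0.044), and without replicate 1 of fip37L the latter was 0.73 and was not called. That call was also lost with either WT library, either cpsf30-3 library or either cpsf30-1 library left out, in a fit of only these mutants, and with DESeq2.

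Several other members also had most of their reads in replicate 1 of fip37L. TDR1, an ethylene-response-factor gene, had 84 and 5 counts for fip37L, 4 and 13 for cpsf30-3, and none in WT or cpsf30-1. Without replicate 1 of fip37L its log2 difference from cpsf30-3 changed from 2.20 ± 1.01 to -0.60. GSTF6, a glutathione transferase gene, had 70 and 3 counts for fip37L, DGK6, a diacylglycerol kinase gene, 65 and 2, TCH3, a calmodulin-like touch gene, 37 and 4, and AT1G22800, a methyltransferase-like gene, 99 and 13. GSTF6, DGK6 and TCH3 did not pass the filter on low counts.

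Of the 69 members highest in fip37L, 49 (71.0%) were higher in replicate 1 than in replicate 2, and 39 (56.5%) had replicates within 2-fold of each other. Of the 5245 other windows highest in fip37L, 42.2% were higher in replicate 1 and 90.5% lay within 2-fold. For cpsf30-1, 130 of 159 members (81.8%) had replicates within 2-fold and 74 (46.5%) were higher in replicate 1. The 15 windows of a list of early stress and wound regulators summed to 90.4 and 114 CPM in fip37L replicates 1 and 2. Their sum was thus not higher in replicate 1. The same windows summed to 66.3 and 63.3 CPM in WT, although 10 of them held at most 2 WT counts. The sum therefore does not show how windows with few reads divide between the replicates. TDR1 is on that list and is its 1 member. Without replicate 1 of fip37L and with 30 counts asked of the other 5 mutant libraries, 28 members were highest in fip37L.

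**Figure D4:**
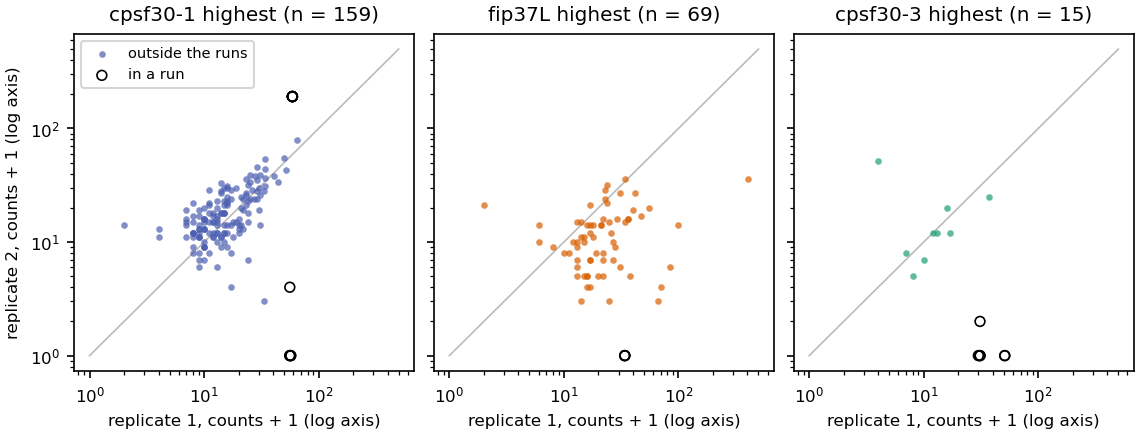
Counts + 1 in replicate 1 (horizontal) and replicate 2 (vertical), both on log axes, in the mutant where each of the 243 members was highest, with the diagonal marking equal counts and open circles the 20 members with repeated counts. Points for cpsf30-1 spread around the diagonal, those for fip37L lie mostly below it, 49 of 69 being higher in replicate 1, and 6 of the 15 for cpsf30-3 are open circles near the bottom edge.

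A second set of members highest in fip37L had even replicates. AT1G34440 had 30 and 26 counts for fip37L, at most 2 in any other mutant library and 0 for WT. AT5G61970, which encodes a protein related to the signal recognition particle, had 22 and 28 for fip37L, 1 and 0 for cpsf30-3, 4 and 3 for cpsf30-1, and 0 for WT. AT1G32970, a subtilisin-like protease gene, had 41 and 26 for fip37L, 1 and 3 for cpsf30-3, 0 and 3 for cpsf30-1, and 1 and 1 for WT. In each of them both fip37L libraries lay above all other libraries.

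AT1G34440 was higher in fip37L by 4.58 ± 0.55 on the log2 scale over cpsf30-1 and by 4.07 ± 0.51 over cpsf30-3. AT1G32970 was higher by 4.29 ± 0.63 and 3.92 ± 0.60. AT4G05370 (23 and 31 counts for fip37L), the pseudogenes AT1G57640 (22 and 23), AT3G29755 (17 and 13) and AT1G44840 (13 and 14), the inositol monophosphatase gene AT4G05090 (39 and 18) and BZIP60 (25 and 11), a transcription factor gene of the unfolded protein response, were also called over both other mutants. Of the 11 members called higher in fip37L than in both other mutants, 3 (AT1G34440, AT1G32970 and AT4G05370) kept both calls under every alternative that could test them. For BZIP60 the log2 difference over cpsf30-1, 2.03 ± 0.64, was not called with replicate 1 of fip37L or any library of cpsf30-3 or cpsf30-1 left out, nor by DESeq2, and the call over cpsf30-3 was lost with any 1 of the 8 libraries left out and in a fit of only these mutants. AT1G44840 lost the call over cpsf30-3 with any 1 of the 8 libraries left out, with library totals and in a fit of only these mutants, and the call over cpsf30-1 without replicate 2 of fip37L or either cpsf30-1 library and with DESeq2. AT4G05090 lost the call over cpsf30-1 with any library but replicate 2 of fip37L left out, with library totals, in a fit of only these mutants and with DESeq2. AT3G29755 lost the call over cpsf30-3 without either library of cpsf30-3. AT1G57640 lost it without replicate 1 of cpsf30-3, and the call over cpsf30-1 without replicate 2 of cpsf30-1. AT5G61970 lost the latter without the same library and with DESeq2. BZIP60 faces AT1G42980, whose own window held 106 and 95 counts for WT and 493 and 140 for fip37L and shares 135 bases with it.

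AT5G11500, a coiled-coil protein gene whose next gene on the same strand starts 10 bases away, was shared by fip37L and cpsf30-1. It had 33 and 35 counts for fip37L, 19 and 18 for cpsf30-1, 5 and 1 for cpsf30-3, and 0 and 0 for WT. Its difference from cpsf30-3 was called in both lines, at 3.42 ± 0.51 for fip37L and 2.61 ± 0.56 for cpsf30-1 on the log2 scale. The cpsf30-1 call was lost with any library of cpsf30-3 or cpsf30-1 left out and with DESeq2. Between fip37L and cpsf30-1 the log2 difference was 0.81 ± 0.37 and was not called. AT2G31920, which encodes a DUF936 protein, also drew on more than 1 mutant, with 46 and 16 reads from fip37L, 16 and 6 from cpsf30-3, 19 and 22 from cpsf30-1 and 1 and 1 from WT, and no difference between mutants was called. AT3G29647, an uncharacterized gene, drew 54 and 19 from fip37L, 27 and 15 from cpsf30-3, 7 and 6 from cpsf30-1 and 0 and 1 from WT, and was called only between fip37L and cpsf30-1 (log2 difference 2.35 ± 0.50), a call lost without replicate 2 of cpsf30-1.

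Outside the groups of repeated counts, 9 members were highest in cpsf30-3. AT5G44390, of the berberine-bridge FAD enzyme family, had 36 and 24 counts there, 15 and 0 for fip37L, 2 and 0 for cpsf30-1, and 1 and 0 for WT. It was called over cpsf30-1 (4.71 ± 1.07 on the log2 scale, edgeR adjusted p = 0.023) but not over fip37L (2.07 ± 0.73, edgeR adjusted p = 0.085). The call was lost without replicate 1 of WT or any library of cpsf30-3 or cpsf30-1, and with DESeq2. AT5G19240, of the GPI-anchored glycoprotein family, had 3 and 51 counts for cpsf30-3, so its lead there rested on replicate 2. It also held at least 10 counts in both fip37L libraries. EXT12, an extensin gene, had 15 and 19, the A20/AN1 zinc finger gene AT1G51200 16 and 11, the receptor kinase gene AT1G56140 12 and 11, and the VQ-motif gene AT1G21326 11 and 11, each with reads in both other mutants and with no call.

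The most even supply over the mutants was seen in LOH2, EXPA2 and AT3G57460. LOH2, a ceramide synthase gene, had 8 and 4 counts for fip37L, 6 and 7 for cpsf30-3, 5 and 7 for cpsf30-1, and 1 and 0 for WT. EXPA2, an expansin gene, had 14 and 10, 5 and 15, and 11 and 9 in the same order. ELM1, a gene for mitochondrial fission, was among the 2 members outside the repeated-count groups with at least 10 counts in all mutant libraries, with 28 and 18 for fip37L, 10 and 13 for cpsf30-3, 28 and 23 for cpsf30-1, and 1 and 0 for WT. It faces AT5G22340, whose window shares 65 bases with it and held 28 and 18, 10 and 13, 28 and 27, and in WT 1 and 2. Unless the counts were made by strand, the reads of ELM1 and AT5G22340 may be in part the same. The other of these 2 members was AT4G10580, with 12 and 10, 20 and 12, and 32 and 27 counts in the mutants and none for WT.

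The genes that lie in and around the windows varied. Of the 241 placed members, 116 (48.1%) held no other annotated gene on either strand, 63 (26.1%) held a gene on the same strand and 62 (25.7%) held a gene on the opposite strand only. Among all placed windows these shares were 45.8%, 22.7% and 31.5%, and among the other windows with at least 30 mutant counts they were 14.6%, 32.3% and 53.1%. The members lay nearer to all windows than to other filled windows in these shares, which are given as a description. Outside the repeated-count groups, 37 members faced an opposite-strand gene so closely that their windows overlapped, and 20 of these faced a window that also held at most 2 counts for WT. The next gene on the same strand began within 100 bases of the end of 12 members. In 25 members (10.4%) a longer model of the upstream gene itself reached into the window, compared with 10.4% of all placed windows.

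**Figure D5:**
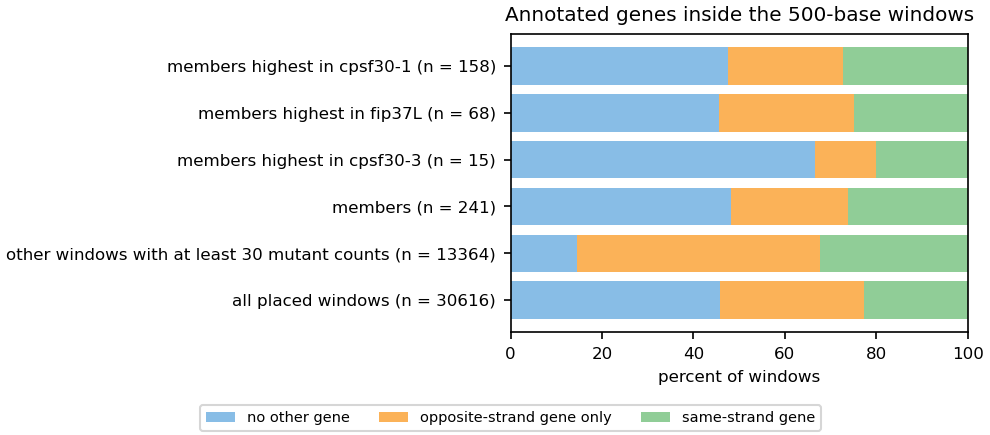
Horizontal bars give the percent of windows with no other annotated gene, with a gene on the opposite strand only and with a gene on the same strand, for members by mutant of highest mean CPM, all 241 placed members, the 13364 other placed windows with at least 30 mutant counts and all 30616 placed windows. The bar for members (48.1% without another gene) lies near that of all windows (45.8%) and away from that of other filled windows (14.6%).

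The upstream genes were protein coding in 223 members and pseudogenes in 18 (7.47%), compared with 12.7% pseudogenes among all placed windows and 1.35% among other windows with at least 30 mutant counts. Pseudogenes made up 11 of the 68 placed members highest in fip37L (16.2%) and 7 of the 158 highest in cpsf30-1 (4.43%). By the wording of the annotation, 14 members followed kinase genes (5.76%, against 4.41% of all windows), 14 followed transcription factor genes (5.76%, against 3.73%), 5 followed lectin genes (2.06%, against 0.501%), 5 followed glycine-rich protein or extensin genes (2.06%, against 1.10%), 6 followed ubiquitin ligase or conjugating enzyme genes (2.47%, against 1.31%), 4 followed cytochrome P450 genes (1.65%, against 0.797%), 3 followed F-box genes (1.23%, against 2.02%), 3 followed ribosomal protein genes (1.23%, against 1.10%) and 0 followed NLR disease resistance genes (against 0.614%, too small a class to read a 0 from). Among other windows with at least 30 mutant counts the shares were, in order, 5.24%, 3.40%, 0.542%, 1.25%, 1.37%, 0.720%, 1.40%, 1.62% and 0.824%. All of these shares are a description. Members lay on all 5 chromosomes, with 62 on chromosome 1, 45 on chromosome 2, 48 on chromosome 3, 32 on chromosome 4 and 54 on chromosome 5.

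None of the 24 windows behind genes of the cleavage, polyadenylation and m6A machinery was a member, and neither were the 6 windows of the list of loci that the study followed up, of which every one held more than 2 counts for WT. Other loci that the study lists as neighbours in pairs were members, among them AT3G63340, its neighbour AT3G63320, AT3G47875 and AT1G32375. AT3G63340, a kinase gene, had 23 and 21 counts for fip37L, 3 and 3 for cpsf30-3, 11 and 15 for cpsf30-1, and 0 and 2 for WT. It was called over cpsf30-3 in fip37L (log2 difference 2.78 ± 0.53) and in cpsf30-1 (2.09 ± 0.58), the former call being lost without either cpsf30-3 library and the latter without any library of cpsf30-3 or cpsf30-1, with a replicate block, with a mean of at least 20 counts and with DESeq2. AT3G63320, a protein phosphatase gene that covers 466 bases of that window on the same strand, had 14 and 5, 2 and 3, and 9 and 12 counts in the mutants in the same order, with no call. AT3G47875, a pseudogene by the annotation, is per the study a mis-annotated LINE retrotransposon behind AT3G47890, which is on the followed-up list. From RNA-seq reads, RT–PCR and a mapping of RNA 3′ ends, the study reports RNAs that run from AT3G47890 into this element in fip37L and cpsf30 mutants. The window counted here starts after the annotated end of AT3G47875, so its counts do not measure that junction. The AT3G47875 window had 28 and 15 counts for fip37L, 8 and 4 for cpsf30-3, and 13 and 15 for cpsf30-1. It was called only for fip37L over cpsf30-3 (1.76 ± 0.48, edgeR adjusted p = 0.036). That call was lost in a fit of only these mutants and without replicate 1 of fip37L or any library of cpsf30-3 or cpsf30-1. The machinery windows are given against WT because they are not members. Of 17 tested, 1 was called higher and 0 lower in each mutant by edgeR. At an unadjusted p under 0.05, 1, 3 and 2 were higher and 0, 1 and 2 lower in fip37L, cpsf30-3 and cpsf30-1. The shares of all tested windows called higher and lower than WT were 7.10% and 2.85% for fip37L, 1.33% and 0.159% for cpsf30-3, and 11.0% and 2.57% for cpsf30-1. The rule used these contrasts with WT, so no count of members is read against them. Of 16 windows behind seed and embryo genes and 5 behind salicylic acid defence genes, 0 were members. Members were 243 of all 31109 windows, so these lists and that of the machinery are too small to read a 0 from.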

How the data were processed

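Poly(A) RNA of whole seedlings was sequenced from a stranded kit, per the labels as single reads of 75 bases in all 8 libraries. The study's methods also describe longer, paired reads for some seedlings of this age, WT and cpsf30-1 among them, and the labels were followed here; the part of read type in differences with WT or cpsf30-1 was not tested. Per the study's methods and the submitters' processing notes, the authors removed organellar and ribosomal reads with Bowtie2 2.3.4, aligned the rest to TAIR10 with TopHat2 2.0.7, and counted reads with BEDTools in the 500 bases behind each transcript model. The deposited files hold these raw counts for 39087 models. BEDTools' version and its strand and gapped-read options are not given for these files in the sources used here. Reads without molecular identifiers are not independent molecules.

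The lowest-numbered model of each of 31109 loci was kept. Of all models, 38527 were placed through the TAIR10.1 annotation, whose 3′ ends may differ from those the authors used. Windows were tested with edgeR 4.0.16 in R 4.3.3 (filterByExpr, TMM, quasi-likelihood F test, 4 groups, 4 residual degrees of freedom, Benjamini-Hochberg), and standard errors are the log2 difference divided by the root of F. The fit was tested on simulated data. Alternatives were library totals, DESeq2 1.42.0, other filters, a fit of 2 mutants, a replicate block, no fold threshold, leaving out each library, and other limits of the rule. Summaries used pandas in Python.

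The members and gene lists were chosen with earlier results of these data known. Named members were, per mutant, the 6 of highest mean CPM there with at least 10 counts in both replicates, the 4 with most counts of those resting on 1 library, the 3 most even, members on the lists and those at the limits. Because the 6 for cpsf30-1 hold nearly the same counts, members called over both other mutants, and others described for their neighbours, were added after their values were seen. TCH3 was likewise picked after its values were seen.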

Additional observations from a re-analysis of the deposited data

Results flagged for a closer look

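For 16 loci the lowest-numbered transcript model did not meet the rule, but a later model did, with at most 2 reads in WT and at least 30 in the mutants. These windows were not used in the comparisons. LURP1, a defence gene, had 30 and 35 counts for fip37L behind its second model and none in any other library. AT4G16450 had 29 and 41 counts for cpsf30-1, 6 and 2 for cpsf30-3, 1 and 0 for fip37L and none in WT. NQR, a quinone reductase gene, had 30 and 8 counts for fip37L, 16 and 7 for cpsf30-3, 12 and 16 for cpsf30-1, and none in WT.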

How the results depend on the processing

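The number of members followed the limits: 243 became 55 with 0 WT counts (20, 7 and 28 highest in fip37L, cpsf30-3 and cpsf30-1), 74 with at least 60 mutant counts (23, 4 and 47), and 116 in windows free of other genes (31 and 75 highest in fip37L and cpsf30-1). With each mutant library left out in turn, 150 to 209 members remained, 82 to 135 highest in cpsf30-1, 28 to 62 in fip37L and 10 to 15 in cpsf30-3, where the limit of 30 was asked of 5 libraries. Leaving out the 20 members with repeated counts, a choice made after seeing the data, left 9 of the 15 highest in cpsf30-3. Scaling counts to equal library size and counting any transcript model kept each number within 1.5 times.

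Calls depended on the tool and filter. For fip37L against cpsf30-1, 83 members higher in cpsf30-1 became 40 with a mean of at least 20 counts and 51 with DESeq2, and 18 higher in fip37L became 34 with no filter and 10 with DESeq2. For fip37L against cpsf30-3, 18 higher in fip37L became 38 with no filter, 11 in a fit of only these mutants and 1 with DESeq2, and 2 higher in cpsf30-3 became 16, 0 and 0 in the same order and 1 with a mean of at least 20. For cpsf30-1 against cpsf30-3, 64 higher in cpsf30-1 became 101 with no filter, 35 with a mean of at least 20 and 16 with DESeq2, and 1 higher in cpsf30-3 became 15 with no filter, 3 in a fit of only these mutants and 0 with DESeq2. The counts of 0 stood beside 3 members at an unadjusted p under 0.05 in the edgeR fit of 2 mutants and 1 and 5 with DESeq2, which gave an adjusted p to 26 and 89 members. With no filter all 243 members were tested; the cause of the other changes was not tested. Leaving out a library gave 49 to 84 and 9 to 26 calls for cpsf30-1 and fip37L in the first comparison, 7 to 27 for fip37L and 0 to 7 for cpsf30-3 in the second, and 10 to 76 for cpsf30-1 and 0 to 6 for cpsf30-3 in the third.

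The replicate numbers did not pair the samples, with correlations of same-numbered deviations from -0.09 to 0.04. The fit with a replicate block made 84 calls for cpsf30-1 and 15 for fip37L in the first comparison, 17 for fip37L and 2 for cpsf30-3 in the second, and 52 for cpsf30-1 and 1 for cpsf30-3 in the third, and of the 45 named differences only AT5G45630 over cpsf30-3 lost its call under the block (log2 difference 2.55). Over all alternatives, the named differences kept direction and call in 501 values, lost the call in 84, gained it in 18 and changed direction in 8. In that tally, a difference that was not called before or after counts as kept. The 6 members from AT2G05390 to AT2G05435 enter it separately, although they hold nearly the same counts. Each of these members gained a call with no filter and without replicate 1 of fip37L. The changes of direction came with a library left out, in differences that had not been called. For AT2G31920, fip37L over cpsf30-1 ranged from -0.18, without replicate 1 of fip37L, to 0.89. For TDR1 (AT3G23230), fip37L over cpsf30-3 ranged from -0.60, without that library, to 3.40. For AT3G57460, fip37L over cpsf30-1 ranged from -1.0, without it, to 1.30, and was -0.29 without replicate 1 of cpsf30-1. For AT1G21326, cpsf30-3 over fip37L ranged from -0.44, without replicate 2 of fip37L, to 1.66. For EXT12 (AT4G13390) it ranged from -0.16, without that library, to 1.10, and was -0.03 without replicate 2 of cpsf30-3. For EXPA2 (AT5G05290), fip37L over cpsf30-3 ranged from -0.51, without replicate 1 of cpsf30-3, to 1.31.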
